A study of Mus musculus with 4 samples.

Results

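Transcription factor genes of limb patterning were followed in a table of H3K27me3 enrichment per gene, and their 10 symbols (Tbx5, Tbx4, Pitx1, Hand2, Alx4, Shox2, Lhx2, Lhx9, Msx1 and Msx2) were matched by name among 22691 listed genes. All 10 are autosomal, and all 10 had a value in both genotypes, as did 19836 autosomal genes in all. The cells were mouse embryonic fibroblasts from female C57BL6/J fetuses at stage E13.5, either Smchd1 +/+ (WT) or Smchd1 MD1/MD1 (MD1), the latter described as deficient for the chromatin protein SmcHD1. Each genotype had 1 library immunoprecipitated with an antibody to trimethylated lysine 27 of histone H3 (the mouse monoclonal CMA323) and 1 input library made with no antibody. There was no replicate of either, so no test between genotypes was possible and every difference below has no replicate check. The labels name no body part from which the fibroblasts were taken and no number of fetuses per library.

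H3K27me3 is laid down by Polycomb repressive complex 2 and is found on silent genes, above all on regulators of development with CpG-rich promoters. In the embryo, Tbx5 is switched on in the forelimb bud and Tbx4 and Pitx1 in the hindlimb bud, where they act in outgrowth or in limb type. The other members act within each bud: Hand2 and Alx4 in its anterior-posterior axis, Shox2 in its proximal segment, Lhx2 and Lhx9 in the mesenchyme that answers the apical ridge, and Msx1 and Msx2 in distal mesenchyme as targets of BMP signalling. A population of fibroblasts can hold cells in which such a gene is marked and cells in which it is not. A smaller share of marked cells and less mark per cell cannot be told apart here.

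The promoters of 4 members with unlike results below are shown. Msx1 and Msx2 had at least 2-fold less of the mark in MD1 cells. Lhx2 had the highest WT value and was also lower in MD1, but within 2-fold (-0.35 in log2). Shox2 had the largest positive difference. Each sequence is the 250 bases before the RefSeq start (build GRCm38.p6, strand of the gene, 5′ to 3′), with every CG in capitals. Msx1 lies at chr5:37824586-37824835 on the minus strand, Msx2 at chr13:53472781-53473030 on the minus strand, Lhx2 at chr2:38339031-38339280 on the plus strand and Shox2 at chr3:66981772-66982021 on the minus strand.
Msx1 promoter: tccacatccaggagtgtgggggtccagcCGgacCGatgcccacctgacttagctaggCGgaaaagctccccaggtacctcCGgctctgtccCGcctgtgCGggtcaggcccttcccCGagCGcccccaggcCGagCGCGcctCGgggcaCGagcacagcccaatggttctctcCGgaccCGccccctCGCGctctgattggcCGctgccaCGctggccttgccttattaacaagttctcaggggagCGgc
Msx2 promoter: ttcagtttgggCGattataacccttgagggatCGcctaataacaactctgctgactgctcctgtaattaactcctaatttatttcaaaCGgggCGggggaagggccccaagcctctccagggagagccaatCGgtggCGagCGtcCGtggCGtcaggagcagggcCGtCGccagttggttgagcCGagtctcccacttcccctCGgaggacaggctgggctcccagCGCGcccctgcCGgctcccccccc
Lhx2 promoter: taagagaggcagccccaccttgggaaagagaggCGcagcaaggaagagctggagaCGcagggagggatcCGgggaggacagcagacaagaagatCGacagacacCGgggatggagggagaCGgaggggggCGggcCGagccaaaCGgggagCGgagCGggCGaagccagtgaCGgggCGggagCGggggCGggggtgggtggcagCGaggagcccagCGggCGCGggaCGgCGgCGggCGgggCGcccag
Shox2 promoter: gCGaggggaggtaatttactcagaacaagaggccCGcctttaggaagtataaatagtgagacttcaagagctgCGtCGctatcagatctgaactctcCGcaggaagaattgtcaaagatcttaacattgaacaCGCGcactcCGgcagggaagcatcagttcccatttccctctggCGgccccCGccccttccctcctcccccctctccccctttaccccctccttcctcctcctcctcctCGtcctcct
Msx1 held 20 CG dinucleotides, Msx2 16, Lhx2 25 and Shox2 11, against a median of 6 (quartiles 2 and 16) over 32851 promoters of the same length. At least as many CG as in Msx1 were found in 17.9% of promoters, and at least as many as in Shox2 in 35.6%. The Hand2 promoter held 15. In these 5 genes the RefSeq start to gene end had the deposited gene length, so both sources use the same start. TAATTG, a homeodomain motif that Msx proteins bind, was searched on both strands. It was present in 7.17% of all promoters and in that of Hand2, 124 bases before the start, and was not found in the other 4. GGCGCC, a palindromic motif of BMP-responsive Smads that overlaps the CG count, was present in 9.59% of all promoters. It was found in Lhx2, 9 bases before the start, and in Hand2, 78 bases before it. Msx1 and Msx2 thus held neither motif in this window and lay between Lhx2 and Shox2 in CG number. The mark was not measured over these windows, since the deposited values cover the gene from its start to its end.

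The values are log2 enrichments over the whole gene interval, positive where the mark exceeds the authors' reference. In WT cells all 10 members were above 0 and above the autosomal upper quartile of 0.49. In MD1 cells 9 were above 0 and 8 above the autosomal upper quartile, also 0.49. Of all 19836 autosomal genes, 7070 were above 0 in WT and 6783 in MD1. The median of the members was 1.59 in WT and 1.22 in MD1, whereas that of all autosomal genes was -0.78 in WT and -0.90 in MD1. The fibroblast marker genes listed for a check of the cell type (15, among them Col1a1, Vim and Thy1) lay below 0 in both genotypes, with a median of -2.90 in WT and -3.99 in MD1. The 5 epithelial genes (Epcam, Cdh1, Krt8, Krt18 and Cldn4) were above 0 in both, with medians of 1.35 and 1.44. Medians were -0.19 and -0.22 over 5 endothelial genes, 0.49 and 0.37 over 4 blood genes with values and 0.09 and -0.08 over 5 neuronal genes. The mark is no measure of expression, and Smchd1 itself, at -2.44 in WT and -3.47 in MD1, does not check the genotype.

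**Figure D1:**
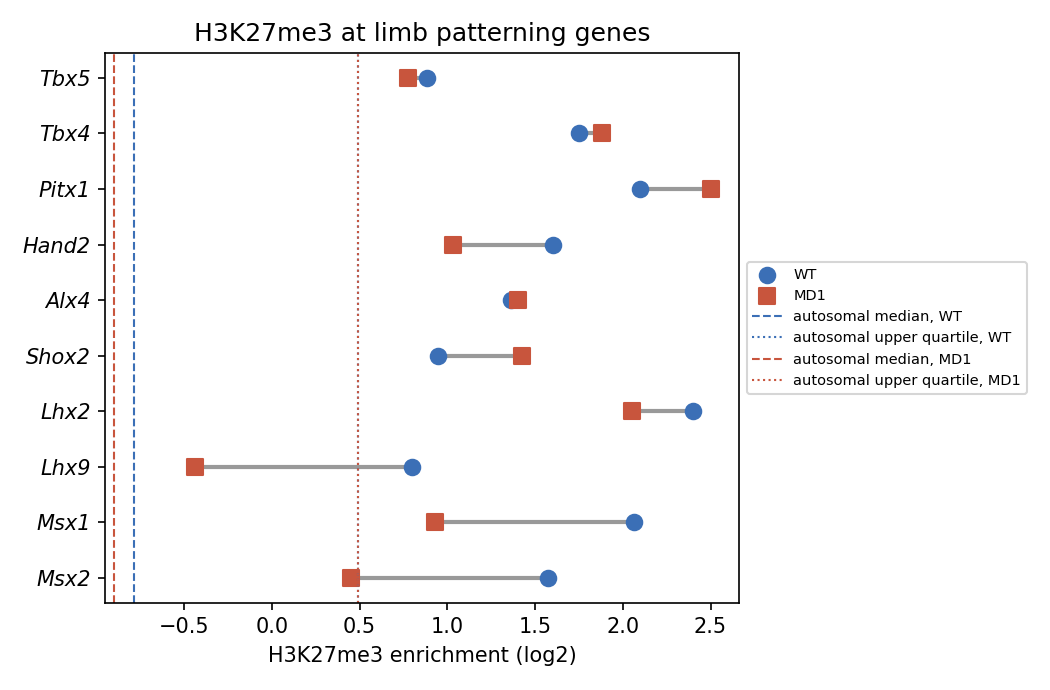
Log2 H3K27me3 enrichment (horizontal axis) of each of the 10 genes in WT (circles) and MD1 (squares), 1 value per genotype, joined by a grey line. Dashed and dotted lines mark the autosomal median and upper quartile in each genotype. The longest lines, all running to lower values in MD1, belong to Lhx9, Msx1 and Msx2.

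In the difference between genotypes the 10 genes fell into a group of 3 with at least 2-fold less mark in MD1 cells (Lhx9, Msx1 and Msx2) and 7 within 2-fold either way. With a pseudocount of 1 added to the linear ratio, which shrinks all differences, none of the 3 passed the limit. A difference is the log2 value in MD1 less that in WT, so -1 is 2-fold lower. Of all autosomal genes, 20.4% passed the lower 2-fold limit and 1.61% the upper one, which no member passed. Of the 4046 lower autosomal genes, 83 had a WT value at or above 0.80, that of the lowest member (Lhx9). Among the 3754 autosomal genes with such a WT value, 2.21% passed the lower limit and 0.906% the upper. This narrower background was chosen after the data were seen. A choice by high WT value can favour lower values in MD1, yet these genes passed the lower limit less often than all autosomal genes. A positive difference was found at 4 of 10 members, 31.0% of all autosomal genes and 57.1% of the narrower background, and a negative one at 6 of 10 members, 69.0% and 42.9%. The median difference of the members was -0.23, against -0.27 over all autosomal genes and 0.05 over the narrower background.

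In place of replicates, each gene was set against 500 autosomal genes, those closest to it in mean of WT and MD1 values within its own quartile of gene length. Their median difference was subtracted to give a level-matched difference, and their standard deviation, the matched SD, served as the yardstick. By level-matched difference the same 3 members were at least 2-fold lower and none was higher, against 3.41% and 3.16% of all autosomal genes and 2.66% and 0.559% of the narrower background. The level-matched difference was larger than 1 matched SD at 6 members (Hand2, Shox2, Lhx2, Lhx9, Msx1 and Msx2) and larger than 2 at Lhx9 and Msx1. The share of all autosomal genes beyond 1 or 2 matched SDs was not computed, so these counts have no background beside them. Matched SDs ran from 0.22 at Tbx5 (50556 bp) to 0.61 at Msx2 (5900 bp), so short genes have the less certain values.

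**Figure D2:**
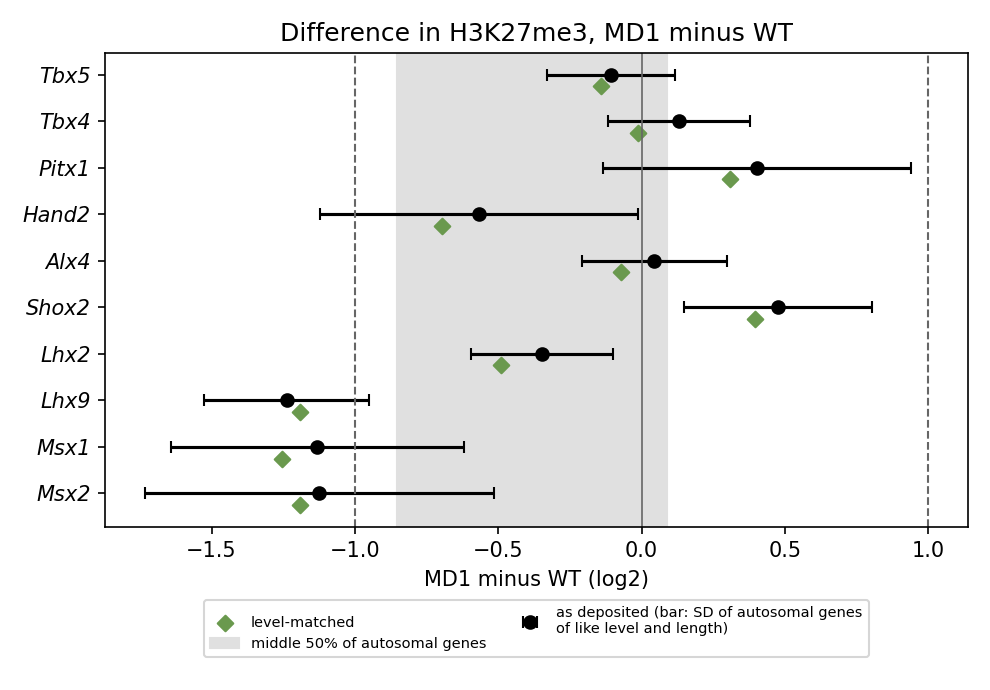
Difference in log2 H3K27me3 enrichment, MD1 minus WT, of each gene as deposited (black circles, bars are 1 matched SD) and level-matched (green diamonds). Grey shading spans the middle 50% of autosomal genes and dashed lines mark 2-fold. Lhx9, Msx1 and Msx2 lie beyond the lower 2-fold line by both measures, and no gene reaches the upper one.

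Tbx5, the forelimb identity gene, had less H3K27me3 than either hindlimb identity gene in both genotypes. Tbx5 (mm9 chr5:120284672-120335227) stood at 0.89 in WT and 0.78 in MD1, at percentiles 82.6 and 80.0 of autosomal genes. Tbx4 (chr11:85703565-85729599) stood at 1.75 and 1.88, at percentiles 94.9 and 94.8. Pitx1 (chr13:55926415-55932786), which encodes the homeodomain factor upstream of Tbx4 in the hindlimb, stood at 2.10 and 2.50, at percentiles 97.2 and 98.5. The order of these levels is the reverse of that of gene length (50556 bp for Tbx5, 26035 bp for Tbx4 and 6372 bp for Pitx1). How the enrichment was scaled for length is not given in the sources, and the part of length in the order was not tested.

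Tbx5 minus the mean of Tbx4 and Pitx1 was -1.04 in WT (2.05-fold lower) and -1.41 in MD1 (2.66-fold lower). Against Tbx4 alone it was -0.87 and -1.10, and against Pitx1 alone -1.21 and -1.72. No replicate gives an error for a level within 1 library, so these gaps are descriptions. The change of the gap from WT to MD1 was -0.37, the same size as the matched SDs of the 3 differences combined (0.37). It was -0.29 by level-matched difference and -0.03 at a common spread, where both columns were centred and MD1 values rescaled to the standard deviation of WT values.

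None of the 3 identity genes differed by 1.5-fold between genotypes. The Tbx5 difference was -0.11 (matched SD 0.22) and turned to 0.005 when both columns were centred on their autosomal medians. The Tbx4 difference was 0.13 (matched SD 0.25), and it turned to -0.01 level-matched and to -0.44 at a common spread. That of Pitx1 was 0.40 (matched SD 0.54), 0.31 level-matched and -0.32 at a common spread. No direction can therefore be given for these 3 genes. The autosomal genes with the most similar pair of values, over 2 libraries only, were 4930405A10Rik, Plxnc1 and Allc for Tbx5 (distances of 0.011, 0.011 and 0.012 in the plane of WT and MD1 values). For Tbx4 they were Cd4, Gm829 and Slc22a18 (0.0038, 0.013 and 0.013), and for Pitx1 Duoxa2, Igdcc3 and H2-Q9 (0.026, 0.027 and 0.028).

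Hand2 and Alx4, of the anterior-posterior axis, were within 2-fold between genotypes. Hand2, a basic helix-loop-helix factor that promotes Shh expression in the posterior bud (chr8:59799780-59803314), went from 1.60 in WT to 1.03 in MD1, a difference of -0.57, or -0.69 level-matched, with a matched SD of 0.55. It was lower in MD1 in all 5 other scalings tried (pseudocounts of 0.01 and 1, centred, level-matched and a common spread), with differences from -0.40 to -0.93. The same direction held for Lhx2, Lhx9, Msx1 and Msx2. These scalings reuse the same pair of values per gene, and the share of all autosomal genes that keep their sign was not computed. Alx4, a paired-type homeodomain factor that restricts Shh to the posterior (chr2:93482591-93521496), stood at 1.36 and 1.40. Its difference of 0.04 turned to -0.07 level-matched and to -0.41 at a common spread.

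Shox2, the homeobox gene required for the proximal limb segment (chr3:66775645-66785693), had the largest positive difference of the 10, from 0.95 to 1.43. The difference of 0.48 was 1.39-fold, with a matched SD of 0.33, and stood at percentile 92.7 of autosomal differences. Shox2 was the only member with a positive difference in all 5 other scalings, of which a common spread left 0.02. The scalings reuse the same pair of values, and no share of all autosomal genes was computed for this.

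The LIM-homeobox pair Lhx2 and Lhx9, which overlap in function in limb outgrowth, differed from each other in level. Lhx2 (chr2:38194801-38225257) had the highest WT value of the members, 2.40, and stood at 2.06 in MD1, a difference of -0.35 with a matched SD of 0.25. Lhx9 (chr1:140721763-140744156) had the lowest value in both genotypes, 0.80 in WT and -0.44 in MD1. Its difference of -1.24, or 2.36-fold, was the largest of the 10 and became -1.19 level-matched, against a matched SD of 0.29. It was -0.66 with a pseudocount of 1. Lhx9 moved from percentile 81.1 to percentile 57.6 of autosomal genes, and was the member below 0 in MD1. Lhx2 exceeded Lhx9 by 1.60 in WT and by 2.49 in MD1.

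Msx1 and Msx2, homeodomain repressors of distal mesenchyme, differed between genotypes by nearly the same amount. Msx1 (chr5:38211730-38215824) went from 2.06 in WT to 0.93 in MD1, a difference of -1.13 or 2.19-fold, and from percentile 96.9 to 82.7 of autosomal genes. Msx2 (chr13:53562250-53568149) went from 1.57 to 0.45, a difference of -1.12 or 2.18-fold, and from percentile 93.0 to 74.3. Level-matched, the differences were -1.25 (matched SD 0.51) and -1.19 (matched SD 0.61). With a pseudocount of 1 they were -0.83 and -0.75, within 2-fold. The genes lie on different chromosomes, and Msx1 exceeded Msx2 by 0.49 in WT and 0.48 in MD1. The antisense gene Msx1os lies inside Msx1 and can share its ChIP reads, which carry no strand, so its 2.33 in WT and 1.31 in MD1 are not a separate measurement.

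The values of the 3 lower genes, after 1 constant per column is removed, equal ratios of whole numbers that are known only in lowest terms. They were 211 to 125 in WT and 297 to 394 in MD1 at Lhx9, 69 to 17 and 80 to 41 at Msx1, and 133 to 46 and 88 to 63 at Msx2. How many reads stand behind them cannot be read from the ratios, so the libraries' depth is unknown and counting error is not given. From the highest to the lowest level the members stood in the order Lhx2, Pitx1, Msx1, Tbx4, Hand2, Msx2, Alx4, Shox2, Tbx5 and Lhx9 in WT. In MD1 the order was Pitx1, Lhx2, Tbx4, Shox2, Alx4, Hand2, Msx1, Tbx5, Msx2 and Lhx9. With no replicates, it is not known which neighbours in these orders differ.

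The members mostly stood above the genes around them. Within 500 kb each member exceeded the median of its non-overlapping neighbours with values (4 at Msx2 to 25 at Pitx1) in WT and in MD1. Of the 10, 7 were above both of their nearest neighbours in WT and 6 in MD1. Neither comparison was made for all autosomal genes or for genes of like level, so neither is shown to be particular to the members. Pitx1 exceeded H2afy, encoding a histone macroH2A, by 4.25 in WT and 5.67 in MD1, and Catsper3 by 0.96 and 1.31. Tbx5 exceeded Rbm19, at -1.53 and -1.99, but lay below Tbx3os2, at 2.13 and 1.92, on its other side.

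The nearest genes on both sides of Tbx4 were also above 0. Tbx2, another T-box gene, stood at 1.504 in WT and 1.85 in MD1, and Gm20759 on the other side at 0.23 and 0.58. Lhx2 exceeded Dennd1a by 3.35 in WT and 3.34 in MD1, and Nek6 by 4.53 and 4.65. Alx4 exceeded Gm10804 by 1.06 and 1.31, and Ext2 by 2.26 and 3.31. Shox2 exceeded Rsrc1, whose interval begins 3.9 kb away, by 2.45 and 3.75, and Veph1 by 1.16 and 1.39. Hand2 was below LOC102636514, 0.123 kb away and at 1.87 in WT and 1.69 in MD1, and exceeded Scrg1 by 1.29 and 0.92. At Lhx2, the member with the highest WT value, both nearest genes were thus below 0 in both genotypes.

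At Msx1 and Msx2 the nearest genes on both sides were within 2-fold between genotypes. Cytl1, next to Msx1, went from 1.14 to 1.93, and Stx18 on the other side from -1.14 to -1.63. Gm2762, next to Msx2, stood at 1.33 and 1.39, and Drd1 on the other side went from 1.58 to 2.37. Msx1 was above Cytl1 in WT and below it in MD1 (Msx1 minus Cytl1, 0.92 and -0.998), and Msx2 likewise relative to Gm2762 (0.24 and -0.94). At Lhx9 one nearest gene, 2310009B15Rik, had a difference of -1.20 from a low WT value of -1.79, and the other, Gm5833, one of 0.07. Of the 20 nearest neighbours, 3 passed the lower 2-fold limit (H2afy, Ext2 and 2310009B15Rik) and 0 the upper. The shares over all autosomal genes were 20.4% and 1.61%. All 3 lower neighbours had WT values below 0.

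**Figure D3:**
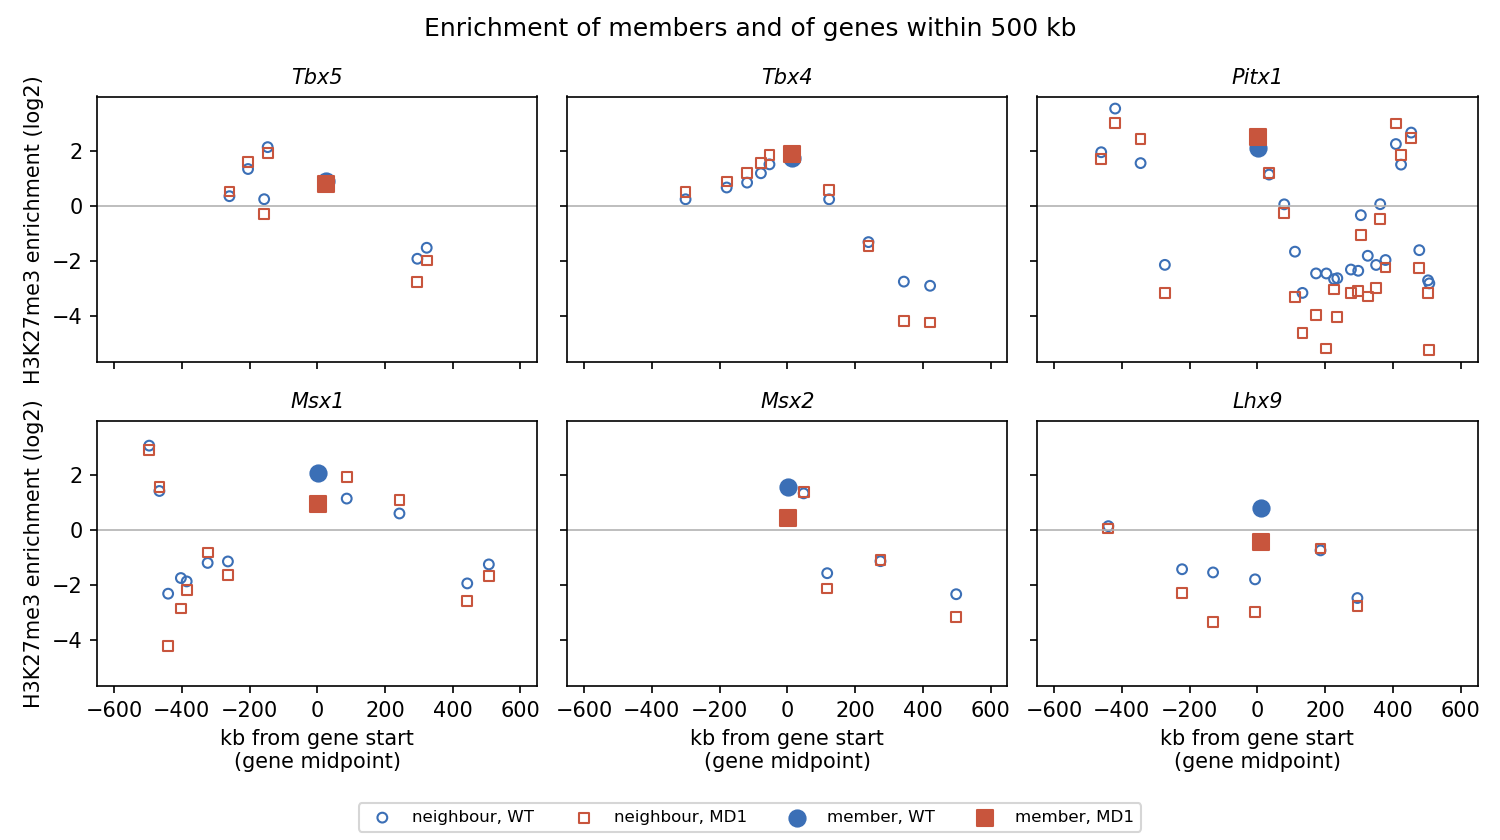
Log2 H3K27me3 enrichment (vertical axis) of 6 members (filled symbols) and of non-overlapping genes within 500 kb (open symbols) in WT (circles) and MD1 (squares), by the distance of the gene's midpoint from the member's start in kb, positive in the direction of transcription. At Msx1 and Msx2 the filled square lies below the filled circle while the nearest open symbols on the positive side stand at or above their WT level in MD1.

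Other genes of limb patterning, listed from general knowledge, did not differ in a single direction. Of 39 other limb transcription factor genes, 3 passed the lower 2-fold limit in MD1 and 2 the upper, beside the 20.4% and 1.61% of all autosomal genes. Prrx1, active in limb mesenchyme, went from -2.90 to -4.84, Osr1 from -0.40 to -1.72 and Tbx15 from -2.01 to -3.26. Emx2 went from -0.65 to 0.53 and Osr2 from 0.47 to 1.59. Level-matched, the differences of Prrx1 and Tbx15 shrank to -0.55 and -0.38, that of Osr1 was -1.22 with a matched SD of 0.94, and those of Emx2 and Osr2 were 1.24 (matched SD 0.72) and 1.07 (matched SD 0.32). Meis1, a proximal limb gene outside the rule for named genes and picked after its values were seen, went from -1.35 to -0.43 and passed the upper limit level-matched (1.13, matched SD 0.34). The median difference of this list was -0.10, which turned to 0.12 level-matched and to 0.01 when centred.

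Of 32 genes of limb signalling, 1 was at least 2-fold lower and none higher, beside 20.4% and 1.61% of all autosomal genes. The lower gene was the retinoic acid receptor gene Rarg, which went from -1.37 to -3.08, by -1.70 as deposited and -1.06 level-matched. The next largest differences were those of the BMP receptor gene Bmpr1a (-0.94), the ligand gene Wnt5a (-0.89) and the FGF receptor gene Fgfr1 (-0.73), all with WT values of -2.09 or lower. Level-matched they were 0.15, -0.04 and 0.42. The median of the list was -0.07, which turned to 0.06 level-matched and 0.04 when centred.

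Most relatives of the members within their gene families were marked too and differed by less than 2-fold. Of 30 other T-box, LIM-homeobox, Pitx, Msx, Hand and Alx genes, 26 were above 0 in WT, beside 7070 of all 19836 autosomal genes. In MD1, 2 passed the lower 2-fold limit and 0 the upper, beside 20.4% and 1.61% of all autosomal genes. Both lower genes, Mga (from -2.60 to -4.26) and Tbx15, had low WT values and came within 2-fold when level-matched. All 10 other LIM-homeobox genes were within 2-fold, led by Lmx1b (0.43), Lhx3 (0.41), Lmx1a (0.26) and Lhx1 (0.21), beside the -1.24 of Lhx9. The third Msx gene, Msx3, went from 2.99 to 2.15, a difference of -0.84 with a matched SD of 0.55. Among T-box genes Tbx3 differed by -0.55 and Tbx19 by 0.46, and Alx1, a relative of Alx4, differed by -0.21. List medians were 0.06 for T-box and 0.20 for LIM-homeobox genes, and both turned negative at a common spread (-0.36 and -0.50).

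**Figure D4:**
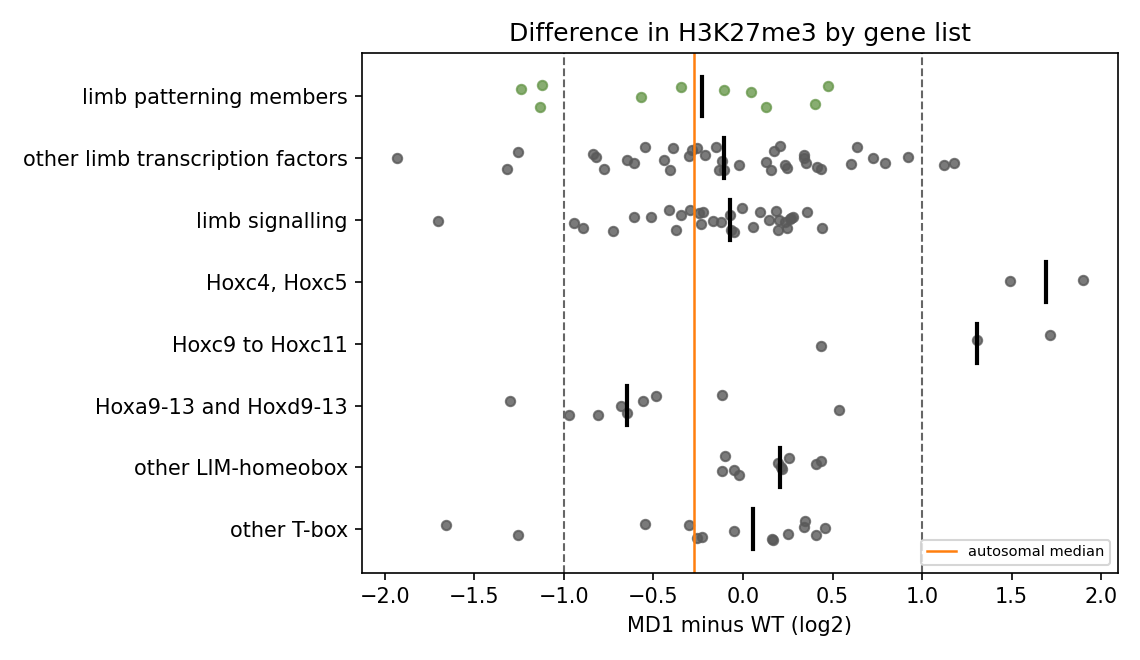
Difference in log2 H3K27me3 enrichment, MD1 minus WT (horizontal axis), of the 10 members (green) and of genes in 7 other lists (grey), 1 point per gene with a black bar at each list's median. Dashed lines mark 2-fold and the orange line the autosomal median of -0.27. The members reach from -1.24 to 0.48, and the other LIM-homeobox genes all lie within 2-fold.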

How the data were processed

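The series has 4 libraries, 1 ChIP and 1 input for each genotype. The authors deposited 1 table with a log2 enrichment of H3K27me3 per gene and genotype, per the file headers. The submitters' processing notes name the build mm9. For the aligner, counting, filters and denominator, the entry is: not given in the sources used here. At a relative tolerance of 1e-12, 99.98% of WT and 99.95% of MD1 values had the form of log2(a/b) plus a fixed offset, with a and b whole numbers up to 20000. Depth is therefore unknown, and no interval or p-value is given.

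Differences (MD1 minus WT), level-matched differences and matched SDs were computed in Python 3.11.15 with pandas 2.3.3. Level matching was tried on simulated data with the same noise for every gene. In the real data the SD of level-matched differences was 0.86 in the shortest quartile of gene length and 0.28 in the longest. The trial therefore does not speak for short genes. MD1 values were more widely spread than WT values (SD 2.08 and 1.57 over autosomal genes), so a common spread was also tried: both columns were centred, and MD1 was scaled to the SD of WT. Centring moved the autosomal median difference from -0.27 to -0.16. Also tried were adding 0.01 or 1 to the linear ratio, limits of 1.5-fold and 3-fold, a mean level of at least the 25th percentile, the mean for the median and leaving out Msx1, whose interval overlaps another gene. Positions count the first base as 1. All 10 symbols were found in the RefSeq gene table (GRCm38.p6). RefSeq promoter sequences matched 7 members, 5 of them at the deposited start, and Tbx5, Pitx1 and Alx4 had no entry.

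The members and lists were chosen with earlier results of these data known. Named besides the members were, of each list, the 4 genes with the largest absolute difference and all genes past 2-fold where 8 or fewer were, the nearest non-overlapping gene on each side of each member, and the 3 genes most like each identity gene. Genes that this rule names and that are left out are not reported here.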

Additional observations from a re-analysis of the deposited data

How the results depend on the processing

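The members' median difference was -0.23 and stayed negative in all settings tried, from -0.11 to -0.68, the latter at a common spread. The median over all autosomal genes was negative in these scalings too. It was -0.27 as deposited, -0.16 centred, -0.24 at a common spread, -0.08 with a pseudocount of 1 and -0.003 level-matched. A common spread also took the median of the LIM-homeobox list to -0.50. The count of 3 members at least 2-fold lower stayed at 3 with a pseudocount of 0.01, centred, level-matched, at a common spread, with the filter and at a limit of 1.5-fold, and was 2 without Msx1. It was 0 with a pseudocount of 1, which shrinks all differences, and 0 at a limit of 3-fold. The count of members higher was 0 in all of these. Tbx5 minus the hindlimb mean, -1.04 in WT and -1.41 in MD1, was -1.03 and -1.41 with a pseudocount of 0.01, -0.75 and -1.04 with 1, and -1.07 in MD1 at a common spread. Against Tbx4 alone it was -0.87 and -1.10, against Pitx1 alone -1.21 and -1.72. Over the 85 other limb genes, 5 were lower and 6 higher at 2-fold, beside 20.4% and 1.61% of all autosomal genes. The counts were 18 and 11 at 1.5-fold, and 2 and 2 at 3-fold, limits at which no autosomal share was computed. A shift of a difference was read as small where it was below the matched SD (for counts, within 1.5 times). No paired analysis was possible because each genotype has 1 ChIP library. With no replicates and unknown depth, short genes such as Hand2, Msx1, Msx2 and Pitx1 are the least certain.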

Other observations

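Hox genes that pattern the limb were found on both sides of the members. Of 9 posterior Hoxa and Hoxd genes, 8 had a negative difference, also in the 5 other scalings, and 1 was at least 2-fold lower. As deposited, the shares over all autosomal genes were 69.0% and 20.4%, and no share was computed for keeping the sign in all scalings. Among autosomal genes with a WT value of at least 0.80, the shares were 42.9% and 2.21%. Hoxd13, needed for digits, went from 2.21 in WT to 0.91 in MD1, Hoxd10 from 2.32 to 1.35, Hoxd9 from 1.49 to 0.68 and Hoxa11 from 1.65 to 0.97. The list's median went from 2.21 to 1.33. The Hoxc genes lay on the other side: Hoxc4 went from 0.11 to 1.60 and Hoxc5 from 0.41 to 2.30, both known for forelimb-level expression. Of those known for hindlimb-level expression, Hoxc9 went from 0.78 to 2.49, Hoxc10 from 1.34 to 2.65 and Hoxc11 from 1.82 to 2.26. Thus 2 of 2 forelimb-level and 2 of 3 hindlimb-level Hoxc genes were at least 2-fold higher in MD1, as were 1.61% of all autosomal genes. Tbx5, Tbx4 and Pitx1 were within 2-fold. Neighbouring Hox genes are not independent of each other, and no replicate checks these values.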
